A study of Mus musculus with 35 samples.

Results

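The genes described here are 10 transcription and chromatin factors known for roles in blood stem cells and leukemia: Myb, Myc, Mycn, Erg, Mecom, Hlf, Sox4, Bcl11a, Hmga2 and Ikzf2. They were chosen by gene symbol, with earlier results of these data known. These 10 of the 49671 genes counted were followed over 35 RNA-seq libraries in 7 groups of 5. The cells were lineage-negative bone marrow cells (hematopoietic stem and progenitor cells, HSPCs) of male and female C57Bl/6 mice, transduced with a lentivirus and sorted by fluorescence. They were then kept for 1 week in a methylcellulose medium (Methocult M3434) to which GM-CSF had been added at 10 ng/mL. The Empty group carried a vector with mCherry and no fusion. All other groups expressed a form of NUP98-HOXA9 tagged with mEGFP. Empty cells were sorted for mCherry, and those of the other groups for both mCherry and mEGFP. In comparisons with Empty, the sort and the fusion therefore cannot be told apart. G-NHX9 is the whole fusion (G-NHA9 in the study's text). G-NHX9-8FA has phenylalanines of its phenylalanine-glycine (FG) repeats replaced by alanine, and G-NHX9-21FGAA has more of the FG pairs replaced. G-NHX9-midi is a shortened fusion that keeps the later part of the FG region and lacks the GLEBS domain, and G-NHX9-midi-21FGAA has its FG pairs replaced, so that none is left. G-NHX9-DDNA keeps all FG repeats and has a homeodomain changed to weaken DNA binding. The labels give an age of 8 weeks for all animals but those of Empty replicates 4 (9 weeks) and 5 (10 weeks) and G-NHX9 replicate 1 (11 weeks). The labels do not say whether the 5 libraries of a group came from separate animals, and the study's methods describe transduction with each virus as done in triplicate, so what the 5 libraries replicate is not known and the p-values measure the spread between these libraries, which may be technical.

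NUP98 fusions of this kind join the FG repeats of a nuclear pore protein, which can form condensates in the nucleus, to the DNA-binding homeodomain of a HOX protein. Leukemias with NUP98 fusions express HOXA and MEIS1 genes together with regulators that are normally silenced as progenitors mature. The 10 factors were grouped by their known roles in blood stem cells and leukemia, not by membership in that programme. Myb and Erg maintain progenitors, Myc and Mycn drive growth, Mecom, Hlf and Hmga2 mark long-lived or fetal stem cells, Sox4 blocks differentiation, and Bcl11a and Ikzf2 are zinc-finger factors of lymphoid and progenitor cells that are also used by leukemic cells.

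Depth ranged from 31559914 to 75810659 counts a library, and all 10 genes passed the filter on low counts that left 17166 genes for testing. Counts per library ran from 744 to 6775 for Myb, from 23 to 481 for Mecom, from 22 to 244 for Hlf and from 7 to 152 for Hmga2, whose values are the least precise. Levels are given as CPM, the count relative to the size of its library after TMM scaling, which centres the libraries on the bulk of their genes. In the annotation used here (GENCODE M21, GRCm38), Myc, Mycn, Erg and Hlf overlapped no other gene. On the opposite strand, a gene whose span covers an exon of the member was annotated for Myb (Gm26577), Mecom (Mecomos), Sox4 (Gm26735), Bcl11a (4930538E20Rik), Hmga2 (1700006J14Rik) and Ikzf2 (Gm29114). The library kit keeps strand, but the strand setting of the counting is not given in the sources used here, so reads of these pairs may not have been told apart.

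The cells had matured in part by the time they were sampled. The summed level of 9 late neutrophil markers was 14721 to 33167 CPM in G-NHX9-8FA, above the 8688 to 12549 CPM of Empty, and 5483 to 21285 CPM in the other groups. For 8 stem and progenitor markers the sum was 647 to 794 CPM in G-NHX9 and 629 to 901 CPM in G-NHX9-21FGAA, both above the 347 to 463 CPM of Empty, and 332 to 938 CPM in the other constructs. This list includes Kit and Gata2, which are also mast cell genes, and its members did not all move together. Mean Kit was 83.4 CPM in Empty, 45.2 CPM in G-NHX9 and 170 CPM in G-NHX9-21FGAA. Mean Gata2 was 95.6 CPM in Empty and 159 CPM in G-NHX9-21FGAA. Markers of other lineages moved with the construct. The sum of 8 mast cell and basophil markers was 481 to 936 CPM in the libraries of G-NHX9, G-NHX9-8FA and G-NHX9-midi, 1233 to 3584 CPM in Empty and 2581 to 6301 CPM in the other groups. For 5 eosinophil markers it was 27.8 to 240 CPM in G-NHX9-8FA and G-NHX9-midi, 253 to 913 CPM in G-NHX9 and 582 to 2170 CPM elsewhere. Erythroid markers (10 genes) summed to 23.8 to 78.3 CPM in G-NHX9-8FA and G-NHX9-midi and to 180 to 1750 CPM in the other groups, and 8 megakaryocyte markers to 144 to 387 CPM in the former 2 groups, 385 to 920 CPM in G-NHX9 and 737 to 2401 CPM in the rest. Early granule markers (5 genes) summed to 126 to 583 CPM in Empty and 186 to 458 CPM in G-NHX9-midi-21FGAA, below the 594 to 2075 CPM of the other groups. Macrophage markers (8 genes) summed to 2908 to 3854 CPM in Empty and to less, without overlap, in G-NHX9 (1434 to 2554 CPM), G-NHX9-midi (1366 to 2665 CPM), G-NHX9-21FGAA (1565 to 2741 CPM) and G-NHX9-DDNA (2370 to 2659 CPM), while G-NHX9-8FA (1739 to 3254 CPM) and G-NHX9-midi-21FGAA (2436 to 3391 CPM) overlapped Empty. The sum was at most 2.03 CPM for 5 T lineage markers, with Cd3e at 0 in every G-NHX9-DDNA library. In bulk RNA, fewer cells of a type and less RNA per cell cannot be told apart, and the part of cell composition in the results below was not tested.

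Per kilobase of exon, and over all 35 libraries, Myc was the most abundant of the 10 (20.9 CPM per kb), followed by Myb (8.76), Erg (6.70), Ikzf2 (5.26), Mycn (2.91), Sox4 (2.74), Bcl11a (0.573), Hlf (0.321), Mecom (0.235) and Hmga2 (0.150). The factors varied by construct to unequal extents. The highest group mean was 6.48 times the lowest for Hmga2, 6.39 for Hlf, 5.60 for Mecom, 4.52 for Sox4 and 3.91 for Myb, and 1.64 for Ikzf2. Within groups, the median coefficient of variation was lowest for Sox4 (15.6%) and highest for Hmga2 (43.6%). In the plot of levels by library the highest group was G-NHX9 for Myb, Myc, Erg, Mecom, Hmga2 and Ikzf2, G-NHX9-midi for Hlf and Sox4, and G-NHX9-21FGAA for Mycn and Bcl11a.

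**Figure D1:**
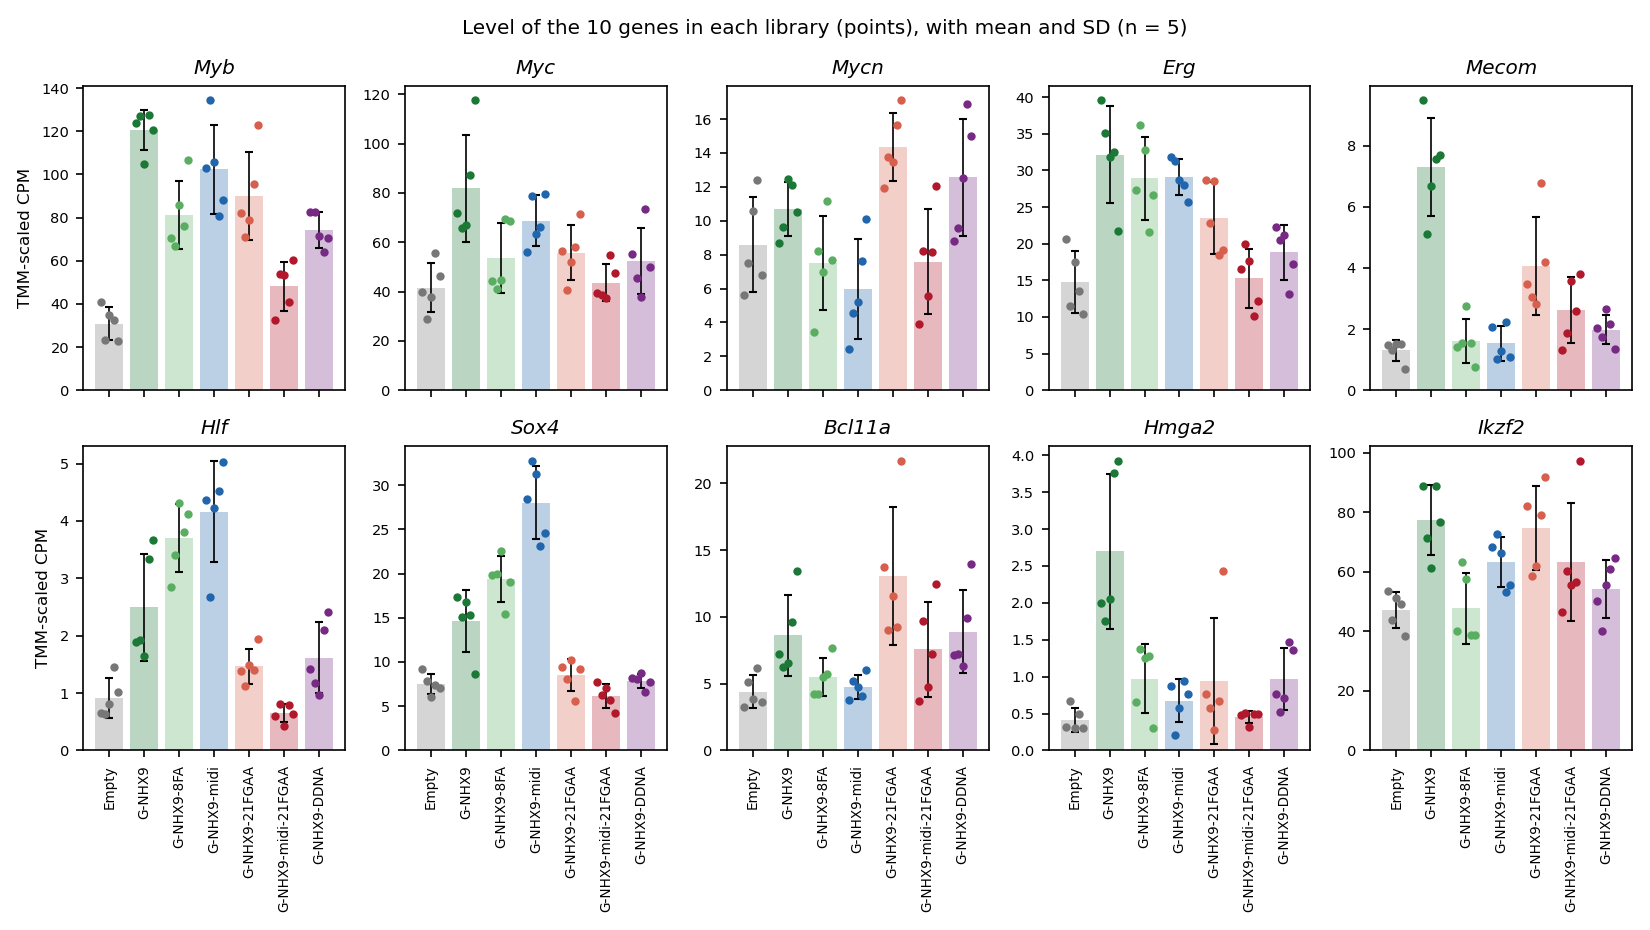
Level of each of the 10 genes in TMM-scaled CPM on a linear axis from 0, with 1 point per library, a bar at the mean of each group and the SD as error bar (n = 5). Sox4 was 23.1 to 32.8 CPM in the G-NHX9-midi libraries, above all other libraries, and Hmga2 was 1.76 to 3.93 CPM in the G-NHX9 libraries.

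The first comparisons ask which of the factors each construct raised over the empty vector. Myb was called higher with every construct, and no factor was called lower with any in the fit used here. Against Empty, G-NHX9 raised 9 of the 10 genes, all but Mycn, when 16.9% of all tested genes were higher and 15.2% lower. G-NHX9-8FA raised 5 (Hlf, Myb, Sox4, Hmga2 and Erg), beside 13.4% of all genes higher and 13.2% lower. G-NHX9-midi raised 5 (Hlf, Sox4, Myb, Erg and Myc), beside 20.5% and 20.0%, and G-NHX9-21FGAA raised 5 (Mecom, Bcl11a, Myb, Erg and Ikzf2), beside 14.7% and 12.5%. The count for G-NHX9-21FGAA depends on the threshold. At an unadjusted p under 0.05 it was 9, as for G-NHX9, and DESeq2 called 8. With no FG repeats, G-NHX9-midi-21FGAA raised 2 (Mecom and Myb), beside 9.59% higher and 7.32% lower. G-NHX9-DDNA raised 3 (Myb, Bcl11a and Hlf), beside 9.85% and 7.35%. Counted over the 10 genes and 6 constructs, 29 of 60 differences were called higher and 0 lower at an adjusted p under 0.05 (quasi-likelihood F test of edgeR, adjusted by Benjamini-Hochberg over all tested genes). The comparisons share the Empty libraries, so these counts are not independent of each other. The genes were also chosen with earlier results of these data known. An excess over the shares of all genes is therefore no independent evidence.

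**Figure D2:**
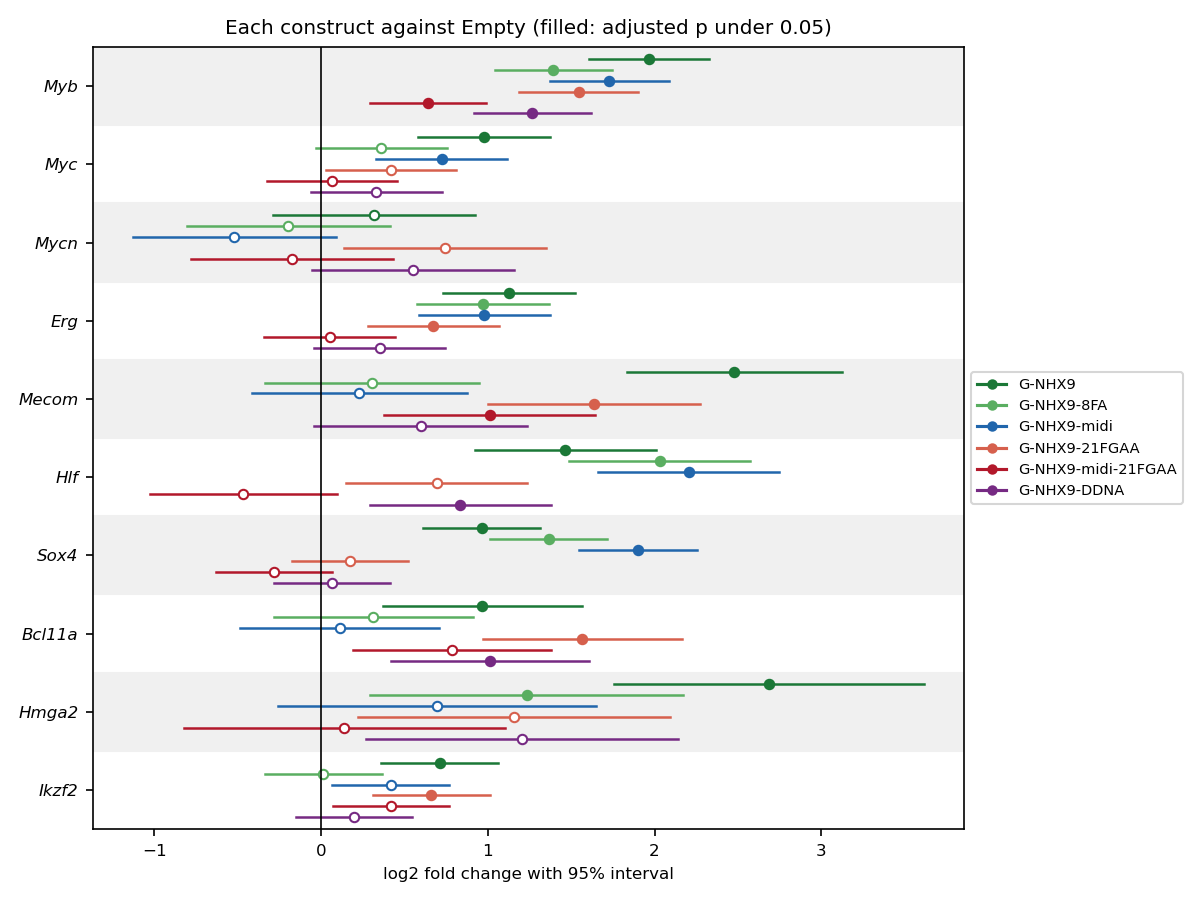
Log2 fold change of each gene in the 6 constructs against Empty (x axis), with the 95% interval of the fit as a line (5 libraries a group). Filled points passed an adjusted p of 0.05, and Myb is filled for all 6 constructs.

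Myb (chromosome 10, 21124935 to 21160984, minus strand) encodes the MYB transcription factor, on which many myeloid leukemias depend for self-renewal. Its level in the Empty libraries was 41.0, 23.3, 34.7, 32.7 and 22.8 CPM, and in G-NHX9 it was 124, 127, 105, 128 and 121 CPM. The G-NHX9 values lay close together and all lay far above the highest Empty value. G-NHX9-midi-21FGAA libraries held 32.3, 54.0, 53.5, 41.1 and 60.3 CPM, and those of the remaining constructs ran from 64.0 to 134 CPM. Only the construct without FG repeats overlapped Empty. The log2 fold change against Empty was 1.97 with G-NHX9 (SE 0.18, adjusted p = 2e-10), 1.73 with G-NHX9-midi (SE 0.17), 1.54 with G-NHX9-21FGAA (SE 0.17), 1.39 with G-NHX9-8FA (SE 0.17), 1.27 with G-NHX9-DDNA (SE 0.17) and 0.64 with G-NHX9-midi-21FGAA (SE 0.17, adjusted p = 0.0095). In this order of means, neighbouring groups overlapped in range down to G-NHX9-DDNA, whose lowest library (64.0 CPM) lay above the highest of G-NHX9-midi-21FGAA (60.3 CPM). The study marked Myb on these same libraries, so its direction is not independent evidence. Of 6 relatives and target genes of MYB (Mybl1, Mybl2, Bcl2, Ccnb1, Cdk6 and Kit), 4 rose and 1 fell with G-NHX9, beside 16.9% of all genes higher and 15.2% lower. Their median log2 fold change there was 0.53, beside 0.01 for all genes. With G-NHX9-8FA 2 rose (beside 13.4%), with G-NHX9-midi 3 rose and 1 fell (beside 20.5% and 20.0%), and with G-NHX9-21FGAA 3 rose (beside 14.7%). With each of G-NHX9-midi-21FGAA (beside 9.59%) and G-NHX9-DDNA (beside 9.85%) 4 rose. Mybl2, a cell-cycle MYB, rose by 1.32 (log2) with G-NHX9 (SE 0.26). Kit, a receptor of progenitors and mast cells, fell by 0.88 with G-NHX9 (SE 0.26) and rose by 1.38 with G-NHX9-midi-21FGAA (SE 0.26). It also counts among the stem and progenitor markers, and the mast cell and basophil sum was 652 to 936 CPM in G-NHX9 and 2618 to 6301 CPM in G-NHX9-midi-21FGAA, against 1233 to 3584 CPM in Empty. The part of those cells in the Kit values was not tested.

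Myc (chromosome 15, 61985391 to 61990374, plus strand), the growth and ribosome regulator, differed less. Empty libraries held 39.6, 29.0, 37.6, 55.8 and 46.3 CPM and G-NHX9 libraries 71.8, 65.6, 67.2, 87.2 and 117 CPM, with no overlap. G-NHX9-midi libraries held 56.1, 78.9, 63.3, 66.0 and 79.7 CPM, the lowest of them just above the highest Empty library. Myc rose by 0.98 on the log2 scale with G-NHX9 (SE 0.19, adjusted p = 0.00019) and by 0.72 with G-NHX9-midi (SE 0.19, adjusted p = 0.0029). G-NHX9-21FGAA passed without Empty replicate 4 (adjusted p = 0.044) or its own replicate 2 (0.042). In the remaining groups the log2 fold change was 0.42 (G-NHX9-21FGAA, adjusted p = 0.11), 0.36 (G-NHX9-8FA, 0.17), 0.33 (G-NHX9-DDNA, 0.24) and 0.07 (G-NHX9-midi-21FGAA, 0.86), and their libraries overlapped those of Empty. All neighbours in the order of group means overlapped.

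Mycn (chromosome 12, 12936093 to 12941914, minus strand), the MYC relative of fetal and stem cells, was called with no construct against Empty. Its unadjusted p was under 0.05 for G-NHX9-21FGAA alone, where DESeq2 called it (adjusted p = 0.041). Empty libraries held 5.61, 7.48, 10.6, 12.4 and 6.83 CPM, G-NHX9-21FGAA libraries 11.9, 13.8, 13.4, 15.6 and 17.1 CPM, and G-NHX9-midi libraries 2.45, 4.53, 5.20, 7.65 and 10.1 CPM. G-NHX9-21FGAA was thus at the top of the order and G-NHX9-midi at the bottom, with Empty between them and overlapping both. G-NHX9-midi-21FGAA, which also has FG pairs replaced, had a mean of 7.57 CPM, below the 8.58 CPM of Empty. The log2 fold change against Empty was 0.75 with G-NHX9-21FGAA (SE 0.30, 95% interval 0.14 to 1.35, adjusted p = 0.060) and -0.52 with G-NHX9-midi (SE 0.30, adjusted p = 0.17). Either passed the threshold when single libraries were left out. For G-NHX9-21FGAA these were Empty replicate 4 (adjusted p = 0.032) and G-NHX9-21FGAA replicate 1 (0.050), and for G-NHX9-midi its replicate 5 (0.038). With the replicate number as a block, described below, both were also called, the fall with G-NHX9-midi at an adjusted p of 0.015.

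Of 10 MYC target genes (nucleolar, nucleotide and polyamine genes such as Ncl, Cad and Srm), 8 rose with G-NHX9 (median log2 fold change 0.73, beside 0.01 for all genes), 4 with G-NHX9-8FA (0.33, beside 0.03), 8 with G-NHX9-midi (0.71, beside 0.02), 10 with G-NHX9-21FGAA (0.63, beside -0.02), 7 with G-NHX9-midi-21FGAA (0.43, beside -0.02) and 8 with G-NHX9-DDNA (0.50, beside -0.01), and none fell. These counts stand beside the shares of all genes given above for each comparison, from 9.59% to 20.5% higher. This list too was chosen with earlier results of these data known. Cad, the first enzyme of pyrimidine synthesis, rose by 1.37 with G-NHX9-21FGAA (SE 0.27) and by 1.08 with G-NHX9-midi-21FGAA (SE 0.27). Among 9 partners and antagonists of MYC, no construct changed more than 2, beside 9.59% to 20.5% of all genes higher and 7.32% to 20.0% lower. Mxd3 rose by 0.66 with G-NHX9 (SE 0.22) and by 0.96 with G-NHX9-midi-21FGAA (SE 0.22), and Mxi1, a MYC antagonist, fell by 0.41 with G-NHX9 (SE 0.12) and by 0.41 with G-NHX9-midi (SE 0.12).

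Erg (chromosome 16, 95359169 to 95586593, minus strand), an ETS factor that stem cells need for self-renewal, was called higher with 4 of the 6 constructs. Empty libraries held 20.6, 11.5, 17.6, 13.6 and 10.5 CPM, and G-NHX9 libraries 39.6, 35.1, 31.9, 32.6 and 21.7 CPM, so that replicate 5 of G-NHX9 was close to the highest Empty library. The G-NHX9-midi libraries (25.7 to 31.9 CPM) and G-NHX9-8FA libraries (21.6 to 36.2 CPM) did not overlap Empty either. Erg rose by 1.13 with G-NHX9 (SE 0.19, adjusted p = 3.2e-05), by 0.98 with G-NHX9-midi (SE 0.19), by 0.97 with G-NHX9-8FA (SE 0.19) and by 0.67 with G-NHX9-21FGAA (SE 0.19, adjusted p = 0.0092). For G-NHX9-DDNA the log2 fold change was 0.35 (SE 0.19, 95% interval -0.04 to 0.74, adjusted p = 0.22), which was called in 2 of 19 alternatives. For G-NHX9-midi-21FGAA it was 0.05 (SE 0.19, adjusted p = 0.89). The interval of G-NHX9-21FGAA (0.28 to 1.07) overlapped that of G-NHX9-DDNA, and these groups were not compared with each other. Of 5 G-NHX9-21FGAA libraries, 3 lay above every Empty library. Erg acts in stem cells with Tal1, Lyl1, Lmo2, Gata2, Runx1 and Fli1, the other genes of the heptad. Of these 6, 3 rose with G-NHX9 (beside 16.9% of all genes higher), with a list median of 0.11, beside 0.01 for all genes. Lmo2 was up by 0.65 (SE 0.10) and Fli1 by 0.42 (SE 0.10). With G-NHX9-8FA 3 rose and 1 fell (beside 13.4% and 13.2%), as with G-NHX9-midi (beside 20.5% and 20.0%). With G-NHX9-21FGAA 3 rose (beside 14.7%). With G-NHX9-midi-21FGAA 1 rose and 2 fell (beside 9.59% and 7.32%), and with G-NHX9-DDNA 1 rose (beside 9.85%). Counts in so short a list are no result about the heptad. The member that fell with G-NHX9-8FA (by 0.89, SE 0.27) and G-NHX9-midi (by 0.88, SE 0.27) was Gata2, a factor of mast cells and megakaryocytes as well as stem cells, and Lyl1 fell with G-NHX9-midi-21FGAA (by 0.42, SE 0.11).

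Mecom (chromosome 3, 29951296 to 30548008, minus strand) encodes EVI1 and MDS1-EVI1, which hold stem cells in quiescence and mark poor-risk leukemia. Its largest rise came with the whole fusion, and it was not called with G-NHX9-midi or G-NHX9-8FA, the constructs under which Hlf and Sox4 were highest. Empty libraries held 1.49, 1.31, 1.50, 1.53 and 0.704 CPM, G-NHX9 libraries 9.48, 5.12, 6.67, 7.57 and 7.70 CPM, and G-NHX9-21FGAA libraries 3.49, 3.06, 2.82, 6.77 and 4.20 CPM. Both of these constructs lay above Empty in every library. By contrast, G-NHX9-8FA libraries held 1.42, 1.55, 2.76, 1.54 and 0.764 CPM and G-NHX9-midi libraries 2.05, 1.02, 1.27, 2.25 and 1.09 CPM, which overlapped the Empty values. The log2 fold change was 2.48 with G-NHX9 (SE 0.32, adjusted p = 2.5e-07), 1.64 with G-NHX9-21FGAA (SE 0.31, adjusted p = 0.00024) and 1.01 with G-NHX9-midi-21FGAA (SE 0.31, adjusted p = 0.023). It was 0.60 with G-NHX9-DDNA (SE 0.31, adjusted p = 0.19), 0.31 with G-NHX9-8FA (SE 0.32, 95% interval -0.34 to 0.95) and 0.23 with G-NHX9-midi (SE 0.32, 95% interval -0.41 to 0.87). The call for G-NHX9-midi-21FGAA was lost without Empty replicate 5 (adjusted p = 0.064) and without G-NHX9-midi-21FGAA replicates 3 (0.066) or 5 (0.078). Gene counts do not separate the start sites of Mecom.

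Hlf (chromosome 11, 90336536 to 90390895, minus strand), a bZIP factor of primitive blood cells, and Sox4 (chromosome 13, 28948919 to 28953713, minus strand), an HMG-box factor that blocks myeloid maturation, had the same 3 groups at the top of their order. For Hlf, Empty libraries held 0.648, 0.643, 0.809, 1.46 and 1.01 CPM, G-NHX9-midi libraries 4.37, 2.67, 4.23, 4.52 and 5.03 CPM, and G-NHX9-8FA libraries 2.84, 3.40, 4.31, 3.80 and 4.13 CPM. G-NHX9 libraries split into values of 1.89, 1.93 and 1.65 CPM and 3.34 and 3.67 CPM, all above Empty. Hlf differed from Empty by a log2 fold change of 2.20 with G-NHX9-midi (SE 0.27, adjusted p = 5.1e-08), 2.03 with G-NHX9-8FA (SE 0.27, adjusted p = 6.2e-07), 1.47 with G-NHX9 (SE 0.27, adjusted p = 6.4e-05) and 0.83 with G-NHX9-DDNA (SE 0.27, adjusted p = 0.029). G-NHX9-21FGAA missed the threshold narrowly, at 0.69 (SE 0.27, adjusted p = 0.051), and passed it in 8 of 19 alternatives, among them the omission of Empty replicate 4 (0.014) or of G-NHX9-21FGAA replicate 2 (0.032). G-NHX9-midi-21FGAA had the lowest level of all groups, 0.430 to 0.801 CPM, with a difference from Empty of -0.47 in log2 (SE 0.28, adjusted p = 0.26). The call for G-NHX9-DDNA was lost on leaving out Empty replicates 1, 2 or 3 or G-NHX9-DDNA replicates 4 or 5, at adjusted p from 0.064 to 0.089.

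Sox4 followed the same order in its upper part, with tighter groups. Empty libraries held 9.26, 7.81, 6.05, 7.44 and 7.01 CPM, G-NHX9-midi libraries 28.4, 32.8, 31.3, 23.1 and 24.6 CPM, and G-NHX9-8FA libraries 19.8, 20.0, 22.6, 15.4 and 19.0 CPM. G-NHX9-midi lay above every other group with no overlap, and its lowest library stood next to the highest of G-NHX9-8FA. G-NHX9 libraries held 17.4, 15.0, 16.8, 15.4 and 8.66 CPM, the last within the Empty range. Sox4 rose by 1.90 with G-NHX9-midi (SE 0.17, adjusted p = 2.1e-10), by 1.36 with G-NHX9-8FA (SE 0.17, adjusted p = 2.8e-07) and by 0.96 with G-NHX9 (SE 0.17, adjusted p = 4.6e-05). For the constructs with most FG pairs replaced or with weakened DNA binding it was 0.18 (G-NHX9-21FGAA, 95% interval -0.17 to 0.52), 0.07 (G-NHX9-DDNA, -0.28 to 0.42) and -0.28 (G-NHX9-midi-21FGAA, -0.63 to 0.07), with adjusted p of 0.48, 0.84 and 0.28.

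The promoters of Hlf and Sox4, the genes raised most by G-NHX9-midi, and of Mecom, which was not called there, are shown to set the regulatory sequence beside these profiles. They are RefSeq windows of 300 bases across a start site (GRCm38.p6), read 5′ to 3′ on the minus strand, at chr11:90390868-90391167 (Hlf), chr13:28953650-28953949 (Sox4), chr3:30509710-30510009 (Mecom, the upstream start) and chr3:30013155-30013454 (Mecom, the downstream start). Capitals mark a match to a searched motif.
Hlf: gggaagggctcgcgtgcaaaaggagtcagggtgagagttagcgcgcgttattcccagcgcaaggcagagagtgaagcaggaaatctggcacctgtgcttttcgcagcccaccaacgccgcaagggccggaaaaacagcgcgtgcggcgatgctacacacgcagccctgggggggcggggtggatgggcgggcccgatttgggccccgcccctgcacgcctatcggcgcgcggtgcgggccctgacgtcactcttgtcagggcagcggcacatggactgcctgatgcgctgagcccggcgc
Sox4: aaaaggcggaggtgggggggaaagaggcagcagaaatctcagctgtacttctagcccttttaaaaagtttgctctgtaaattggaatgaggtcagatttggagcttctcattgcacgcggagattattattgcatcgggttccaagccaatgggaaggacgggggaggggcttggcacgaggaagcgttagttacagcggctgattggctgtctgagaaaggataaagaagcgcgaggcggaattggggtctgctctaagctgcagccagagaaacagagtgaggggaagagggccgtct
Mecom upstream: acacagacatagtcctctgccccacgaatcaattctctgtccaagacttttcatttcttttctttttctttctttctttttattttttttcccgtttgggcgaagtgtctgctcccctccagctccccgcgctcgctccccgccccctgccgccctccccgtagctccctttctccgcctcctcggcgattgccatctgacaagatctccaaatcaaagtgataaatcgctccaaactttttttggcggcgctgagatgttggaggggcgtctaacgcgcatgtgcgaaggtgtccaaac
Mecom downstream: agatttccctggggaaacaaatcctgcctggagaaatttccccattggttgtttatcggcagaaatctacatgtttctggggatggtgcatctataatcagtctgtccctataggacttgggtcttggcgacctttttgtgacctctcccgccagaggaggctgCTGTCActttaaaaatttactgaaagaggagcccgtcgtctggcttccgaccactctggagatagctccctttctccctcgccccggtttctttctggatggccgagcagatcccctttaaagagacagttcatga
Promoter windows were found for 8 of the 10 genes, all but Myc and Ikzf2. Searched on both strands, with no overlap between the motifs, were TGATTTAT (a composite of PBX and HOX sites), TGACAG (the core of a MEIS site) and CACGTG (an E-box bound by MYC with MAX). TGATTTAT and CACGTG were in no window of these genes, and are in 0.977% and 7.15% of the 32851 windows of all genes. TGACAG was in the downstream window of Mecom (1 match), in 1 window of Erg (2 matches) and in that of Mycn (1 match), and is in 19.2% of all windows. The Hlf window held 30 CpG dinucleotides, the Sox4 window 12, and those of Mecom 19 and 9. A match is no evidence of binding, and binding was not measured here.

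Bcl11a (chromosome 11, 24078056 to 24174123, plus strand) and Ikzf2 (chromosome 1, 69531214 to 69687245, minus strand) encode zinc-finger factors, the first a repressor of fetal globin and a lymphoid and stem cell gene, the second the Ikaros relative Helios. Bcl11a in Empty was 3.29, 5.14, 3.84, 6.17 and 3.61 CPM, in G-NHX9-21FGAA 13.8, 9.01, 11.6, 9.27 and 21.7 CPM, and in G-NHX9 7.20, 6.24, 6.55, 9.62 and 13.5 CPM. All G-NHX9-21FGAA libraries lay above Empty, and the G-NHX9 libraries lay above it by as little as the gap between 6.24 and 6.17 CPM. Bcl11a rose by 1.57 with G-NHX9-21FGAA (SE 0.29, adjusted p = 0.00021), by 1.02 with G-NHX9-DDNA (SE 0.29, adjusted p = 0.016) and by 0.97 with G-NHX9 (SE 0.29, adjusted p = 0.010). It was 0.78 with G-NHX9-midi-21FGAA (SE 0.29, adjusted p = 0.059), which DESeq2 called (0.040), 0.31 with G-NHX9-8FA (adjusted p = 0.47) and 0.11 with G-NHX9-midi (adjusted p = 0.79). The G-NHX9 call was lost without G-NHX9 replicate 5 (adjusted p = 0.066) and the G-NHX9-DDNA call without G-NHX9-DDNA replicate 5 (0.053). That for G-NHX9-midi-21FGAA was gained without Empty replicate 4 (0.046) or G-NHX9-midi-21FGAA replicates 1 (0.018) or 3 (0.036). Ikzf2 in Empty was 53.6, 43.7, 51.3, 49.1 and 38.6 CPM, in G-NHX9 88.7, 71.4, 61.4, 88.7 and 76.8 CPM and in G-NHX9-21FGAA 81.9, 58.7, 61.9, 79.1 and 91.9 CPM, with neither construct overlapping Empty. It rose by 0.71 with G-NHX9 (SE 0.17, adjusted p = 0.0017) and by 0.66 with G-NHX9-21FGAA (SE 0.17, adjusted p = 0.0045). G-NHX9-midi missed the threshold (0.42, SE 0.17, adjusted p = 0.051) and passed it without Empty replicate 1 (0.035), G-NHX9-midi replicate 4 (0.039) or G-NHX9-midi replicate 5 (0.043). G-NHX9-midi-21FGAA stood at 0.42 (SE 0.17, adjusted p = 0.088, or 0.039 without its replicate 1) and G-NHX9-8FA at 0.01 (SE 0.17, 95% interval -0.34 to 0.36).

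Hmga2 (chromosome 10, 120361275 to 120476469, minus strand), a chromatin protein of fetal stem cells that let-7 microRNAs repress, was the least abundant of the 10 per kilobase and had its highest level with the whole fusion. Empty libraries held 0.312, 0.666, 0.300, 0.498 and 0.306 CPM (10 to 29 counts) and G-NHX9 libraries 2.00, 1.76, 2.06, 3.76 and 3.93 CPM (71 to 152 counts). No library of the other groups but G-NHX9-21FGAA replicate 5 (2.43 CPM) entered the G-NHX9 range. Hmga2 rose by 2.69 with G-NHX9 (SE 0.46, adjusted p = 2.5e-05) and by 1.23 with G-NHX9-8FA (SE 0.46, adjusted p = 0.045). The latter call was lost on leaving out any of 7 libraries, Empty replicates 1, 3, 4 or 5 or G-NHX9-8FA replicates 2, 3 or 4, at adjusted p from 0.062 to 0.11. Values for G-NHX9-DDNA (1.21, adjusted p = 0.066) and G-NHX9-21FGAA (1.16, adjusted p = 0.059) were close to it, and DESeq2 called both (0.037 and 0.032). Without its replicate 5, the G-NHX9-21FGAA value dropped to 0.49 (adjusted p = 0.45), and it passed without Empty replicate 2 (0.039) or G-NHX9-21FGAA replicates 2 (0.039) or 3 (0.020). G-NHX9-midi stood at 0.70 (SE 0.47, adjusted p = 0.24) and G-NHX9-midi-21FGAA at 0.14 (SE 0.47, adjusted p = 0.88). Of 7 genes of the LIN28B, let-7 and HMGA2 axis, 3 rose and 1 fell with G-NHX9 (beside 16.9% of all genes higher and 15.2% lower) and with G-NHX9-8FA (beside 13.4% and 13.2%). With G-NHX9-midi (beside 20.5% and 20.0%) and G-NHX9-21FGAA (beside 14.7% and 12.5%), 2 rose and 1 fell. None was called with G-NHX9-midi-21FGAA or G-NHX9-DDNA. Counts in so short a list are no result about the axis. The median log2 fold change of the list with G-NHX9 was 0.59, beside 0.01 for all genes. Lin28b, a repressor of let-7, had a mean of 0.666 CPM with G-NHX9 and 0.0803 CPM in Empty. Igf2bp3, an RNA-binding protein of fetal cells, rose by 1.46 with G-NHX9 (SE 0.13, adjusted p = 1.3e-10), from a mean of 12.3 to 34.0 CPM. Lin28a, the paralog of Lin28b, rose by 1.53 with G-NHX9-8FA (SE 0.33) and 1.29 with G-NHX9-midi (SE 0.33), and Igf2bp2 fell by 1.58 with G-NHX9-midi (SE 0.22).

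The next comparisons ask what each change of the fusion did to the factors, with G-NHX9 as reference. Mecom and Hmga2 were lower with all 4 mutants. G-NHX9-8FA lowered 5 of the 10 (Mecom, Hmga2, Ikzf2, Myc and Myb) and raised 0, when 6.43% of all tested genes were higher and 8.04% lower. G-NHX9-midi raised 2 (Sox4 and Hlf) and lowered 4 (Mecom, Hmga2, Bcl11a and Mycn), beside 8.50% and 11.2%. G-NHX9-21FGAA lowered 5 (Hmga2, Mecom, Sox4, Hlf and Myc) and raised 0, beside 8.91% and 8.34%. G-NHX9-DDNA lowered 7 (Mecom, Hmga2, Sox4, Erg, Myb, Myc and Ikzf2) and raised 0, beside 10.7% and 11.4%. Since all use the G-NHX9 libraries, which were the highest group for 6 of the genes, the shared direction is no separate support.

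**Figure D3:**
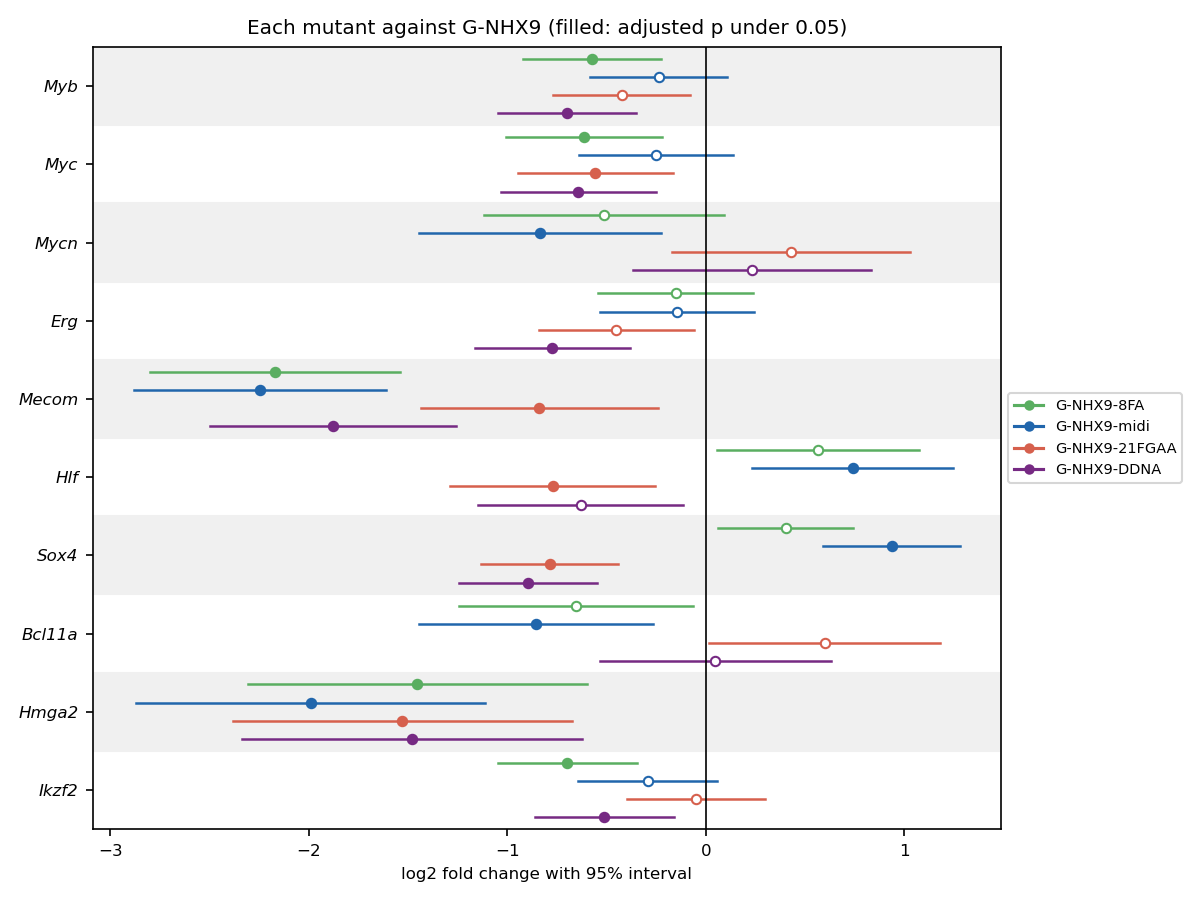
Log2 fold change of each gene in the 4 mutants against G-NHX9 (x axis), with the 95% interval of the fit (5 libraries a group). Filled points passed an adjusted p of 0.05, and all 4 points for Mecom and for Hmga2 are filled and below 0.

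Against G-NHX9, Mecom fell by 2.25 with G-NHX9-midi (SE 0.31, adjusted p = 2.2e-06), by 2.17 with G-NHX9-8FA (SE 0.31, adjusted p = 7.1e-06) and by 1.88 with G-NHX9-DDNA (SE 0.31, adjusted p = 2e-05), in each case to below the lowest G-NHX9 library in all 5. With G-NHX9-21FGAA it fell by 0.84 (SE 0.29, adjusted p = 0.044), a call that was lost without any of 8 of the 10 libraries (all but G-NHX9 replicate 2 and G-NHX9-21FGAA replicate 4, at adjusted p from 0.057 to 0.13). Hmga2 fell by 1.99 with G-NHX9-midi (SE 0.43, adjusted p = 0.0010), by 1.53 with G-NHX9-21FGAA (SE 0.42), by 1.48 with G-NHX9-DDNA (SE 0.42) and by 1.45 with G-NHX9-8FA (SE 0.42, adjusted p = 0.017, or 0.063 without G-NHX9 replicate 5). Sox4 rose by 0.94 with G-NHX9-midi (SE 0.17, adjusted p = 0.00011) and fell by 0.79 with G-NHX9-21FGAA (SE 0.17, adjusted p = 0.00091) and by 0.89 with G-NHX9-DDNA (SE 0.17, adjusted p = 0.00018), while G-NHX9-8FA stood at 0.40 (SE 0.17, adjusted p = 0.11). Hlf rose by 0.74 with G-NHX9-midi (SE 0.25, adjusted p = 0.033) and fell by 0.77 with G-NHX9-21FGAA (SE 0.25, adjusted p = 0.032). Erg and Myb, the progenitor factors, fell with G-NHX9-DDNA by 0.77 (SE 0.19) and 0.70 (SE 0.17), and Myb fell by 0.57 with G-NHX9-8FA (SE 0.17, adjusted p = 0.021). Myc fell by 0.64 with G-NHX9-DDNA, 0.61 with G-NHX9-8FA and 0.56 with G-NHX9-21FGAA (SE 0.19 for each), and Ikzf2 by 0.70 with G-NHX9-8FA and 0.51 with G-NHX9-DDNA (SE 0.17 for each).

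Several of these smaller calls were near the threshold and were lost on leaving out any 1 of several libraries. Without G-NHX9 replicates 4 or 5, the Myc calls against G-NHX9-8FA (adjusted p = 0.055 and 0.16) and G-NHX9-21FGAA (0.099 and 0.23), the Bcl11a call for G-NHX9-midi (0.074 and 0.17) and the Hlf call for G-NHX9-21FGAA (0.12 and 0.14) were lost. The same calls were lost without G-NHX9-8FA replicates 1, 2 or 3 (Myc, up to 0.091), G-NHX9-21FGAA replicates 1, 2, 3 or 4 (Myc, up to 0.15), G-NHX9-midi replicates 1, 3 or 4 (Bcl11a, up to 0.082) and G-NHX9-21FGAA replicates 1, 2 or 4 (Hlf, up to 0.097). Mycn fell by 0.84 with G-NHX9-midi (SE 0.30, adjusted p = 0.046), which held without G-NHX9 replicate 1 or G-NHX9-midi replicates 4 or 5 and was lost without any other (0.052 to 0.14). The Hlf rise with G-NHX9-midi was lost without G-NHX9 replicates 1, 2 or 3 or G-NHX9-midi replicates 1, 4 or 5 (0.058 to 0.084), and the Myb fall with G-NHX9-8FA without its replicates 1 (0.060) or 2 (0.064). With G-NHX9-DDNA, the Ikzf2 call was lost without G-NHX9 replicates 1 or 4 or G-NHX9-DDNA replicates 1, 2 or 3 (0.050 to 0.10) and the Myc call without G-NHX9 replicate 5 (0.091) or G-NHX9-DDNA replicate 3 (0.053). Calls gained in this way were Hlf for G-NHX9-DDNA (without G-NHX9 replicate 3, 0.041, or G-NHX9-DDNA replicate 5, 0.022), and Erg (0.043) and Bcl11a (0.049) for G-NHX9-21FGAA without G-NHX9 replicate 5 and Myb (0.034) without G-NHX9-21FGAA replicate 5.

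The main fit has no replicate block, although same-numbered libraries of different groups had a higher mean correlation (0.232) than others (-0.057). Of 140 values of a gene in a comparison or in the interaction described below, 19 were called only with the block and 0 only without it. In 5 of the 13 comparisons every same-numbered pair of libraries passed the cutoff described with the processing. With the number as a replicate block, the call of 9 genes for G-NHX9 against Empty was the same, Bcl11a was added for G-NHX9-midi-21FGAA against Empty (adjusted p = 0.020) and Myc (0.047), Mycn (0.044) and Erg (0.050) for G-NHX9-DDNA against Empty, which made 6. Against G-NHX9, Erg (lower, 0.011) and Bcl11a (higher, 0.032) were added for G-NHX9-21FGAA, which made 7, and Hlf (lower, 0.015) for G-NHX9-DDNA, which made 8.

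Replacement of the FG pairs can be compared in both backbones. In the shortened fusion it took Hlf and Sox4 down to levels not called different from Empty. G-NHX9-midi-21FGAA against G-NHX9-midi lowered 5 genes (Hlf, Sox4, Myb, Erg and Myc) and raised 1 (Mecom), when 21.0% of all tested genes were higher and 22.2% lower. Hlf fell by 2.67 (SE 0.27, adjusted p = 9.7e-10), from 2.67 to 5.03 CPM in the G-NHX9-midi libraries to 0.430 to 0.801 CPM. Sox4 fell by 2.18 (SE 0.18, adjusted p = 9.3e-12), from 23.1 to 32.8 CPM to 4.19 to 7.73 CPM. Neither gene overlapped between the 2 groups, and the same held for Myb, which fell by 1.09 (SE 0.17), Erg, which fell by 0.93 (SE 0.19), and Myc, which fell by 0.66 (SE 0.19). How many of all genes had no overlap was not counted, so this is no result about these genes as a set. Mecom went the other way, with 1.30, 1.87, 3.58, 2.58 and 3.81 CPM in G-NHX9-midi-21FGAA, and rose by 0.78 (SE 0.31, adjusted p = 0.038). This call was lost without G-NHX9-midi replicates 2, 3 or 5 or G-NHX9-midi-21FGAA replicates 3, 4 or 5 (adjusted p from 0.053 to 0.12), and Bcl11a (0.67, SE 0.29, adjusted p = 0.059) passed without G-NHX9-midi replicate 5 (0.045) or G-NHX9-midi-21FGAA replicates 1 (0.017) or 3 (0.030).

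The difference between the backbones was tested as an interaction, a contrast added after the values were seen: the change of G-NHX9-21FGAA from G-NHX9, minus that of G-NHX9-midi-21FGAA from G-NHX9-midi. It was called higher for 2 of the 10 genes and lower for 1, when 5.20% of all tested genes were higher and 7.43% lower. Hlf had an interaction of 1.90 (SE 0.36, adjusted p = 0.00045) and Sox4 of 1.39 (SE 0.24, adjusted p = 0.00012), so their fall on FG replacement was larger in the shortened fusion. Mecom had an interaction of -1.62 (SE 0.42, adjusted p = 0.0089), from a change of -0.84 in the whole fusion and 0.78 in the shortened one. Each of these changes was near the threshold (adjusted p = 0.044 and 0.038), and the calls were lost in 12 and 8 of 19 alternatives. The replacement leaves FG repeats in the whole fusion and none in the shortened one. None of the 3 interaction calls was lost on leaving out any of the 20 libraries or under the other settings tried. Myb, at 0.66 (SE 0.24, adjusted p = 0.065), passed without G-NHX9-midi replicate 4 (0.041), G-NHX9-21FGAA replicate 2 (0.046) or G-NHX9-midi-21FGAA replicate 5 (0.041), and Hmga2, at -0.97 (SE 0.61, adjusted p = 0.34), without G-NHX9-21FGAA replicate 5 (0.038).

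**Figure D4:**
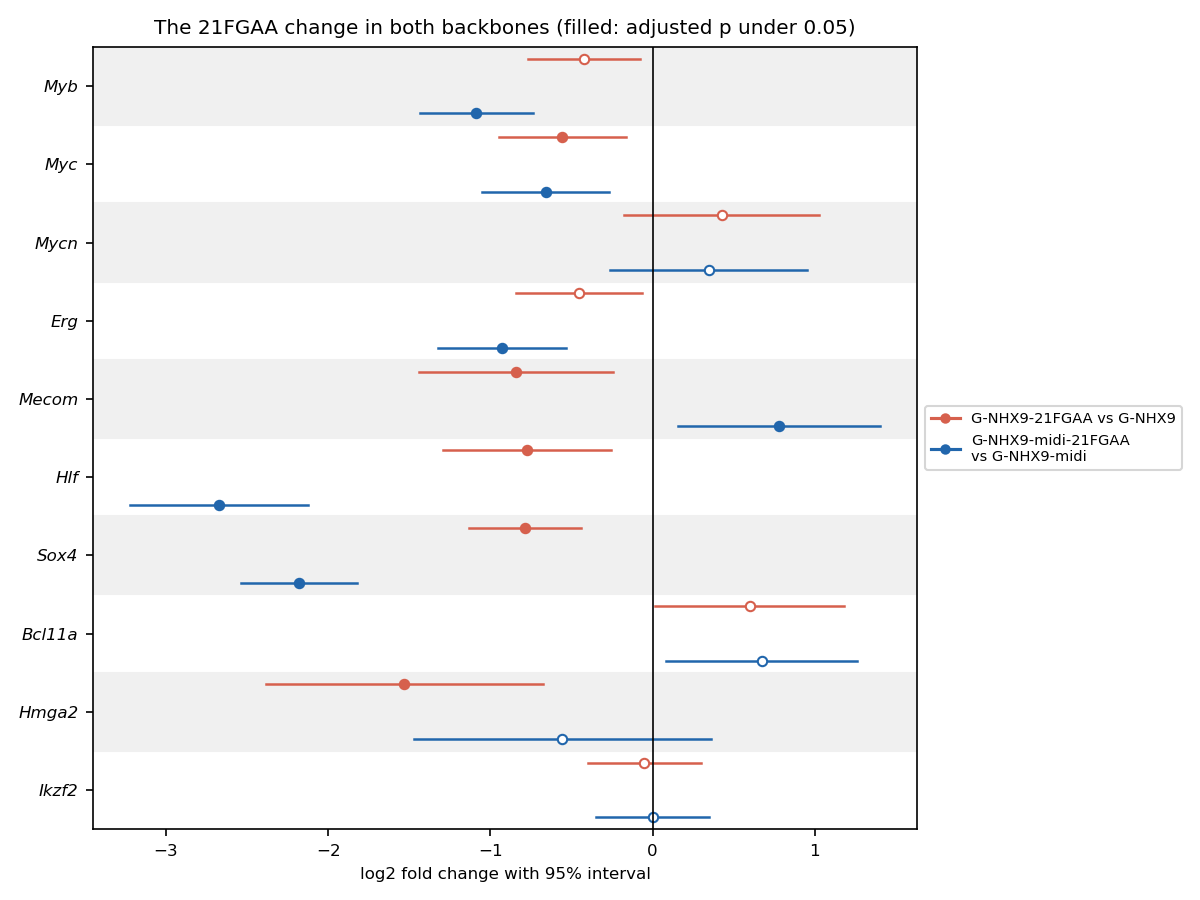
Log2 fold change on replacement of the FG pairs (21FGAA) in the whole fusion and in the shortened fusion (x axis), with the 95% interval of the fit (5 libraries a group). Filled points passed an adjusted p of 0.05, with Mecom at -0.84 in the whole fusion and 0.78 in the shortened one.

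Constructs with FG repeats left were also compared with each other. G-NHX9-21FGAA against G-NHX9-8FA raised 4 genes (Mecom, Bcl11a, Mycn and Ikzf2) and lowered 2 (Hlf and Sox4), when 15.3% of all tested genes were higher and 17.1% lower. Mecom rose by 1.33 (SE 0.30, adjusted p = 0.0010), Bcl11a by 1.25 (SE 0.29, adjusted p = 0.0011), Mycn by 0.94 (SE 0.30, adjusted p = 0.015) and Ikzf2 by 0.65 (SE 0.17, adjusted p = 0.0041). Hlf fell by 1.34 (SE 0.25, adjusted p = 0.00012) and Sox4 by 1.19 (SE 0.17, adjusted p = 1.9e-06). All but Ikzf2 had no overlap between the groups. The share of all genes without overlap was not counted, so this is no result about these genes as a set. No call of this comparison was lost on leaving out 1 library. The mast cell, eosinophil, erythroid and megakaryocyte marker sums differed between these 2 groups in the same direction as Mecom, Bcl11a, Mycn and Ikzf2. Late neutrophil markers differed in the direction of Hlf and Sox4, with 6 of 9 lower in G-NHX9-21FGAA (median log2 fold change -1.18) and sums of 6954 to 12756 CPM against 14721 to 33167 CPM. The part of either in these results was not tested. G-NHX9-midi against G-NHX9-8FA changed none of the 10, when 1.51% of all tested genes were higher and 2.74% lower. At an unadjusted p under 0.05 there were 2, Sox4 (0.53, SE 0.17, 95% interval 0.19 to 0.87, adjusted p = 0.063) and Ikzf2 (0.40, SE 0.17, adjusted p = 0.21), and DESeq2 called 1, Sox4 (adjusted p = 0.032). Sox4 was higher in all 5 G-NHX9-midi libraries than in any of G-NHX9-8FA and passed the threshold without G-NHX9-midi replicate 4 (0.034). For the other genes the 95% intervals ran from -1.42 (lower end for Hmga2) to 0.75 (upper end for Myc).

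Over the 35 libraries, pairs of these factors moved together or apart in log2 CPM. Hlf and Sox4 had a Pearson r of 0.79, Erg and Sox4 of 0.78, Myb and Erg of 0.75, Mycn and Bcl11a of 0.72 and Mecom and Ikzf2 of 0.70. Sox4 had an r of -0.46 with Mycn and -0.36 with Bcl11a. These values describe the libraries, which share groups and depth, and they carry no test.

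**Figure D5:**
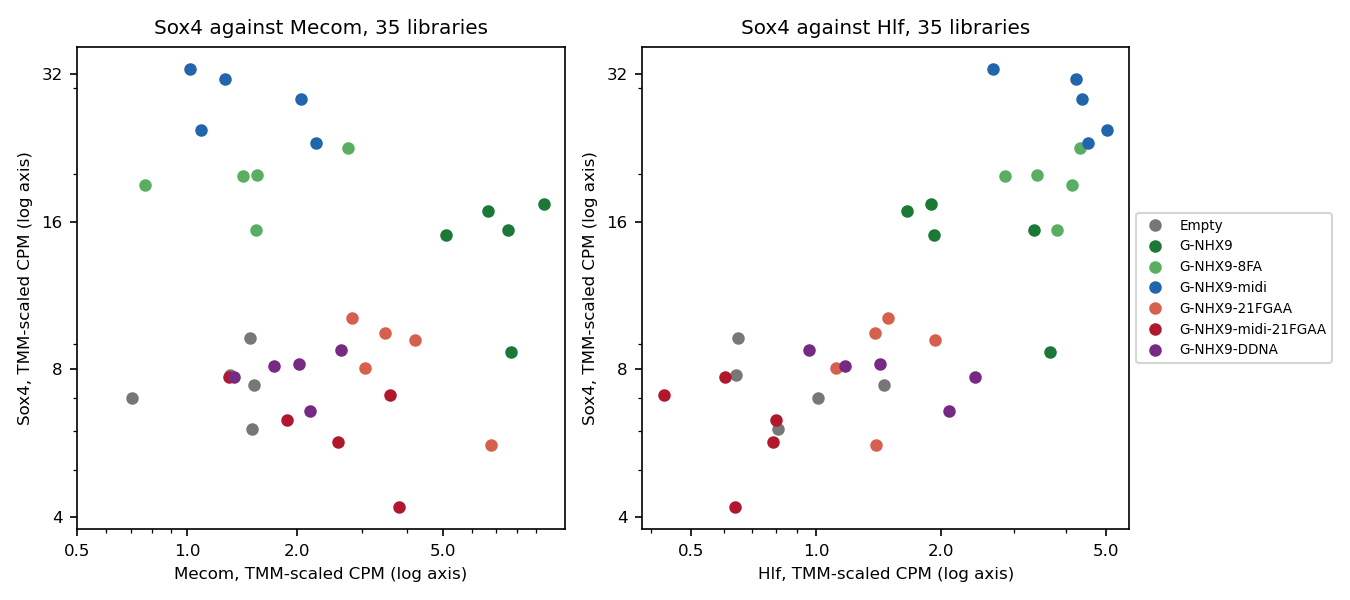
Sox4 against Mecom (left) and against Hlf (right) in TMM-scaled CPM on log axes, with 1 point for each of the 35 libraries, coloured by group. The G-NHX9-midi and G-NHX9-8FA libraries lie at high Sox4 (15.4 to 32.8 CPM) and low Mecom (0.764 to 2.76 CPM), while the G-NHX9 libraries have Mecom of 5.12 to 9.48 CPM.

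Out of 12774 genes whose mean level reached 1 CPM, the 2 closest in profile to each factor over the 35 libraries were Plac8 and Ubash3a for Myb (r of 0.96 and 0.93), Xpc and Tgfb2 for Sox4 (0.95 and 0.94), Mefv and Limd2 for Hlf (0.91 and 0.90) and Ppm1e and 2810025M15Rik for Mecom (0.90 and 0.87). They were Rab27a and Cep97 for Erg (0.89 and 0.89), Mylk and Abca4 for Mycn (0.87 and 0.84), Sec24d and Fchsd2 for Myc (0.87 and 0.86), Sipa1l1 and Cxxc5 for Bcl11a (0.86 and 0.84), Prrg4 and Etnk1 for Ikzf2 (0.85 and 0.79) and Igfbp7 and Etv4 for Hmga2 (0.79 and 0.79). Likeness was weakest for Hmga2, the factor with the fewest counts. By rank correlation, 9 of these 20 genes were still among the closest 2.

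Of 15 relatives, 13 were tested, of which 3 rose with G-NHX9 (median log2 fold change of the list 0.18, beside 16.9% of all genes higher), 2 rose and 2 fell with G-NHX9-8FA (beside 13.4% and 13.2%) and with G-NHX9-midi (beside 20.5% and 20.0%), 1 rose with G-NHX9-21FGAA (beside 14.7%), 3 fell with G-NHX9-midi-21FGAA (beside 7.32%), and 2 rose and 1 fell with G-NHX9-DDNA (beside 9.85% and 7.35%). Such counts in so short a list are no result about the relatives. Ets1, an ETS relative of Erg, rose by 1.10 with G-NHX9 (SE 0.14), by 1.35 with G-NHX9-8FA (SE 0.14), by 0.81 with G-NHX9-midi (SE 0.14), by 0.74 with G-NHX9-DDNA (SE 0.14) and by 0.41 with G-NHX9-21FGAA (SE 0.14). Hmga1 rose by 0.68 with G-NHX9-8FA (SE 0.08) and by 0.62 with G-NHX9-midi (SE 0.08). Ikzf3, the Ikaros relative Aiolos, fell by 1.43 with G-NHX9-8FA (SE 0.27) and by 0.74 with G-NHX9-midi (SE 0.26) and rose by 0.74 with G-NHX9-DDNA (SE 0.25). Dbp, a bZIP relative of Hlf, fell by 0.60 with G-NHX9-midi (SE 0.16), by 0.59 with G-NHX9-midi-21FGAA (SE 0.16) and by 0.58 with G-NHX9-DDNA (SE 0.16).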

How the data were processed

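RNA-seq counts of 35 libraries (7 groups of 5, from the labels) were analysed. The authors deposited whole-number read counts per gene, not normalized. The submitters' processing notes name STAR 2.7.0d, HTSeq 0.11.2, DESeq2 and mm10, and the strand setting is not given in the sources used here. The tests used edgeR 4.0.16 under R 4.3.3 (filterByExpr, TMM, quasi-likelihood test on all 35 libraries with a mean per group, Benjamini-Hochberg within each of 13 comparisons over 17166 genes, threshold 0.05). The standard error (SE) is the log2 fold change over the root of F. Figures used Python 3.11.15 and matplotlib 3.10.9. For correlations, log2 CPM took a prior count of 2. The test was run on simulated counts of independent libraries, with a small share of genes changed in G-NHX9 alone. This does not check it for libraries that correlate by number or for changes as widespread as those here. Members, lists and rules were chosen with earlier results of these data known. Text names the 10 members, up to 2 genes a direction for each list (chosen by log2 fold change against Empty), and the 2 genes most like each member. Same-numbered libraries had a mean correlation of deviations of 0.232, and others -0.057. In 5 comparisons each of the 5 pairs was above 0.1 (G-NHX9, G-NHX9-midi-21FGAA and G-NHX9-DDNA against Empty, and G-NHX9-21FGAA and G-NHX9-DDNA against G-NHX9). The alternatives were library sizes without TMM, RLE, no filter, a mean of 1 CPM, the block, a sex-linked score, the groups compared only, DESeq2 1.42.0, a minimum log2 fold change of 1 and leaving out each library.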

Additional observations from a re-analysis of the deposited data

Results flagged for a closer look

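Within groups of 5, 5 of the 70 combinations of gene and group held a library far from the other 4 by Dixon's test at 95%, which flags about 1 in 20 groups by chance. Mecom in Empty replicate 5 was 0.704 CPM, beside 1.31 to 1.53 CPM in the others. Sox4 in G-NHX9 replicate 5 was 8.66 CPM, beside 15.0 to 17.4 CPM. Hmga2 was 2.43 CPM in G-NHX9-21FGAA replicate 5, beside 0.274 to 0.765 CPM, and 0.313 CPM in G-NHX9-midi-21FGAA replicate 3, beside 0.481 to 0.510 CPM. Ikzf2 in G-NHX9-midi-21FGAA replicate 5 was 97.3 CPM, beside 46.5 to 60.2 CPM.

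Replacement of the FG pairs had unlike effects in the whole and the shortened fusion for 3 genes, by the test of the difference itself. The log2 effect in the whole fusion minus that in the shortened one was 1.90 for Hlf, 1.39 for Sox4 and -1.62 for Mecom.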

How the results depend on the processing

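Of 67 called differences between the 10 genes' groups (interaction included), 49 held under every alternative other than the minimum fold, and 18 were lost under at least 1. Of 73 not called, 28 were called under at least 1. No called value changed sign, and the 65 sign changes were of values called in neither fit, at most 0.209 in absolute log2 terms. Leaving out 1 library gave 8 to 9 genes called for G-NHX9 against Empty, 4 to 5 for G-NHX9-8FA, 5 to 7 for G-NHX9-midi, 5 to 8 for G-NHX9-21FGAA, 1 to 4 for G-NHX9-midi-21FGAA and 1 to 3 for G-NHX9-DDNA. Against G-NHX9 it gave 3 to 5 for G-NHX9-8FA, 3 to 5 for G-NHX9-midi, 2 to 5 for G-NHX9-21FGAA and 5 to 8 for G-NHX9-DDNA, and 5 to 7 for G-NHX9-midi-21FGAA against G-NHX9-midi, 6 to 6 and 0 to 1 for G-NHX9-21FGAA and G-NHX9-midi against G-NHX9-8FA and 3 to 4 for the interaction. With a minimum log2 fold change of 1, 5, 3, 3 and 1 genes were called for G-NHX9, G-NHX9-midi, G-NHX9-21FGAA and G-NHX9-midi-21FGAA against Empty, 2 for each of G-NHX9-8FA, G-NHX9-midi and G-NHX9-DDNA and 1 for G-NHX9-21FGAA against G-NHX9, and 3 for G-NHX9-midi-21FGAA against G-NHX9-midi, since fewer differences can pass. For G-NHX9-21FGAA against Empty, 9 were called without TMM, 8 with DESeq2 and 8 with the replicate block. Without TMM it was 4 for G-NHX9-midi-21FGAA against Empty. For G-NHX9-21FGAA against G-NHX9, 3 were called without TMM, with RLE and in the fit to the groups compared, and 2 with no filter. With the replicate block, 6 were called for G-NHX9-DDNA against Empty, 9 for G-NHX9-8FA against G-NHX9 and 2 for G-NHX9-midi against G-NHX9-8FA, where 1 was called without TMM, with the sex-linked score, in the fit to the groups compared and with DESeq2. The cause of these shifts was not tested. In the 8 comparisons where not every pair was above 0.1 the block called at least as many genes as the fit without it. Of 35 libraries, 24 correlated best with their own number. The summed counts of the fixed lists went from 218 to 57 calls with the minimum fold. The order of group means was the same without TMM for 6 of the 10 genes. Without TMM, the median of all genes against Empty moved from 0.01 to 0.19 for G-NHX9, and the share of calls that were higher went from 52.5% to 75.4% (G-NHX9), 50.6% to 64.6% (G-NHX9-midi), 54.0% to 82.1% (G-NHX9-21FGAA), 56.7% to 83.1% (G-NHX9-midi-21FGAA) and 57.3% to 82.5% (G-NHX9-DDNA) against Empty, from 44.4% to 20.0% for G-NHX9-8FA against G-NHX9, and from 47.2% to 68.0% (G-NHX9-21FGAA) and 35.5% to 59.1% (G-NHX9-midi) against G-NHX9-8FA, so changes are relative to the TMM scale. Counts of 7 to 152 limit the precision for Hmga2.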
